A study of Schizosaccharomyces pombe with 9 samples.

Results

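SD2 is a fission yeast strain that lacks rpl32-2 (rpl3202 in the current annotation), and it was compared here with the control strain SPQ-01, called WT. The comparison used the 3 SD2 and the 3 WT arrays, 6 of the 9 arrays of the series. They were chosen by their strain labels. The other 3 arrays were of SD1, the same background without rpl32-1 (rpl3201), and served to estimate the spread and for a direct comparison of the deletions. WT was described as the control for both deletions. All strains had grown without further treatment in YEPD, the rich glucose medium of yeast work, at 30 °C. They were collected at an OD600 of 5.0, which the submitters called log phase. Total RNA, 500 ng per array, was labelled with biotin for Affymetrix arrays that carry probe sets for both S. pombe and S. cerevisiae. The labels call the arrays biological replicates. They do not give the mating type, the auxotrophies, the deletion cassette or the number of clones, so differences between these strains beyond the deletion could not be told apart from it.

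Ribosomal protein L32 belongs to the large (60S) ribosomal subunit, and fission yeast encodes it in a pair of genes. Ribosomes are made in the nucleolus: RNA polymerase I transcribes the large rRNA precursor, snoRNPs modify it, and assembly factors and RNA helicases fold and cut it around the ribosomal proteins. Genes for sugar uptake and for use of other carbon sources are repressed in fission yeast by glucose, through the cAMP-dependent protein kinase Pka1 and the repressor Scr1.

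Of 2937 S. pombe probe sets with a gene name, 518 were higher (17.6%) and 419 were lower (14.3%) in SD2 than in WT at an adjusted p under 0.05 in limma, 31.9% in either direction. Values are log2 expression values throughout, so a difference of 1 is a 2-fold change. By 2-fold or more, 97 were higher (3.30%) and 44 lower (1.50%). The median change over all probe sets was 0.01, and 79.5% of them changed by less than 0.5 in either direction. By 4-fold or more 13 genes fell, while ani1 and urg1 rose by as much from WT levels above background. Of the 97 genes that rose by 2-fold or more, 38 belonged to the lists of ribosome assembly and of RNA polymerases I and III. Those lists held 65, 17 and 18 of the 2899 measured genes. Another 31 of the 97 were in no list. Of the 43 genes that fell by as much, 10 belonged to the carbon lists and 12 to no list. In the lists of sugar use, galactose, glycerol use and glucose sensing, 4 of 11, 3 of 3, 2 of 9 and 1 of 23 measured genes fell by 2-fold or more. The share of the carbon lists together among all genes was not computed. The gene lists held 1752 genes, of which 1429 were measured by a named probe set.

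Arrays of the same number in different strains shared exactly equal values, 238 to 412 among arrays numbered 1, 2 to 9 among those numbered 2 and 10 to 12 among those numbered 3, and arrays of different numbers shared at most 1. The number was therefore treated as a processing set, and differences within each number are given for rpl3201, for the ribosome assembly and stress lists, and in the plot of 18 lists. The spread over probe sets of the SD2 minus WT difference was 0.72 (SD) within number 2 against 0.45 within numbers 1 and 3. With the number as a block, limma called 764 probe sets higher (26.0%) and 694 lower (23.6%). Without all arrays numbered 2, those of WT, SD1 and SD2, it called 309 higher and 186 lower. That setting moved 50 of 82 counts over gene lists by more than 1.5 times. The moved counts are given for some lists only. Of 929 genes called, 565 kept their call with each of the 6 arrays left out in turn, as did 129 of the 140 genes called at 2-fold or more. Genes given below singly with a rise or fall kept the call in all 6, except where arrays are named. Counts over a list are of calls with all arrays, and arrays are named beside them where leaving one out moves a count by over 1.5 times. In these bulk samples fewer cells of a kind and less RNA per cell cannot be told apart. For 18S rRNA the signal at the 3' end less that at the 5' end, a measure of RNA or labelling quality, was -0.90, -1.53 and -1.07 on WT arrays 1 to 3 and -0.49, -0.29 and -0.52 on SD2 arrays 1 to 3. The groups did not overlap. The same measure did not overlap either for 28S rRNA, at -0.47, -0.077 and -0.14 on WT arrays 1 to 3 and 0.13, 0.37 and 0.28 on SD2 arrays 1 to 3. For URA4 mRNA it was 1.68, 1.41 and 1.53 in WT and 1.32, 1.405 and 1.21 in SD2, with SD2 array 2 only just below WT array 2. For ACT1 mRNA the groups overlapped, at 0.30 ± 0.083 and 0.33 ± 0.050 (SD, n = 3). The part of these measures in the results below was not tested.

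**Figure D1:**
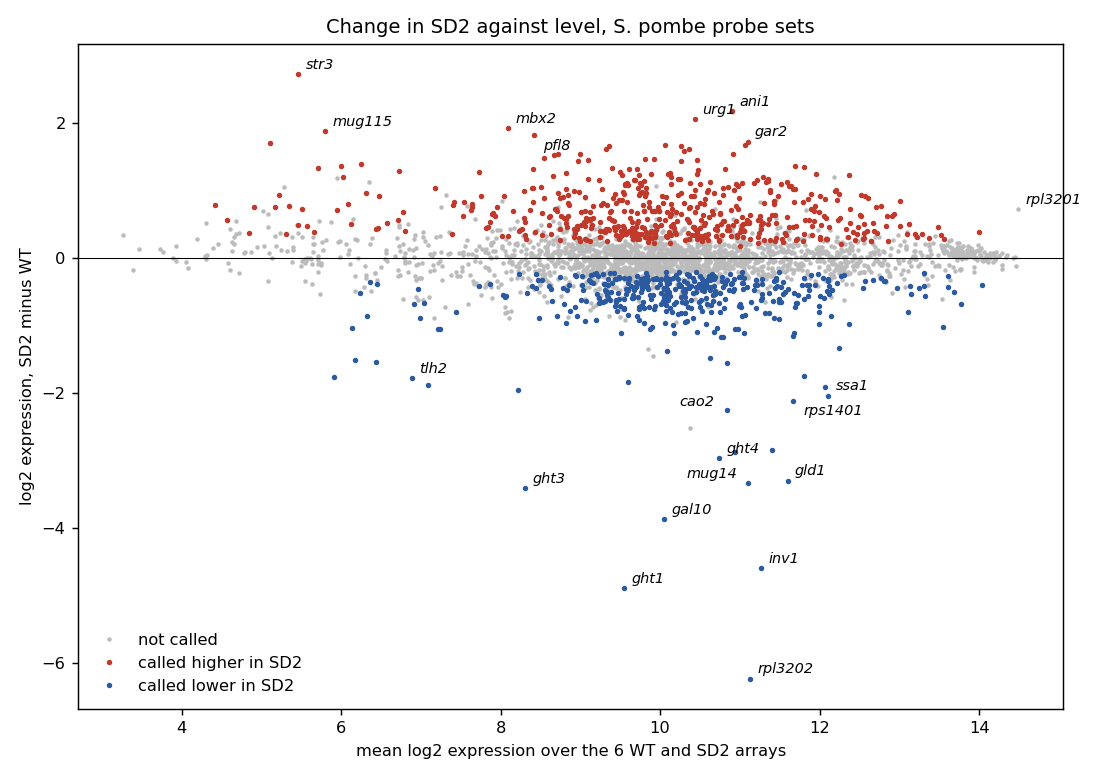
Each point is 1 S. pombe probe set, with its mean log2 expression over the 6 arrays on the x axis and the log2 difference SD2 minus WT on the y axis. Red points were called higher (518) and blue points lower (419) by limma; the falls of rpl3202, ght1, inv1 and gal10 reached further from 0 than any rise.

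The deleted gene rpl3202 read 14.11, 14.24 and 14.38 on WT arrays 1 to 3 and 7.25, 8.89 and 7.88 on SD2 arrays 1 to 3. The groups lay far apart, and the SD2 arrays stayed above the background of 5.13 to 5.26, a yardstick set at percentile 95 of the probe sets for S. cerevisiae. It fell by 6.23 ± 0.34 (SE; limma adjusted p = 9.5e-05). Its paralogue rpl3201 read 13.88, 14.06 and 14.45 on WT arrays 1 to 3 and 14.92, 15.12 and 14.50 on SD2 arrays 1 to 3. Every SD2 array was above every WT array, but the lowest SD2 value exceeded the highest WT value only narrowly. The difference SD2 minus WT was 0.72 ± 0.41 (SE; limma adjusted p = 0.22), so it did not pass the test. Within arrays 1, 2 and 3 the difference was 1.04, 1.06 and 0.05. The SD2 readings of rpl3201 matched the highest S. pombe values of their arrays, 14.92, 15.12 and 14.50. On WT arrays 1 to 3 the highest values were 14.62, 14.50 and 14.45. Whether the upper end of the scale limited the difference was not tested.

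The genes for the other ribosomal proteins moved little as a group. Of 71 measured large-subunit genes, 6 were higher (8.45%), 3 lower (4.23%) and 62 not called, against 17.6% and 14.3% of all probe sets. Their median was 0.10, and 65 of the 71 differences were positive. Without WT array 1 10 were higher, and without SD2 array 2 3 were. Of 45 small-subunit genes 1 was higher and 1 lower, with a median of 0.05 and 42 positive differences. Without SD2 array 1 2 were lower. With the number as a block 27 large-subunit and 6 small-subunit genes were higher. Over both subunits 112 of 116 genes changed by less than 0.5. The mean over large-subunit genes was 13.49 to 13.70 on WT arrays and 13.65 to 13.79 on SD2 arrays, toward the upper end of the scale. Whether that end limited these differences was not tested. The clearest rise was that of rpl3402, which encodes L34, with 11.66, 11.57 and 11.88 on WT arrays 1 to 3 and 12.62, 12.77 and 12.74 on SD2 arrays 1 to 3. The groups did not overlap. In the fit the change came to 1.00 ± 0.10 (SE; limma adjusted p = 0.00048). Among the falls were rpl1603 at -0.42 and rpl1002 at -0.40. The gene that fell most was rps1401, for S14 of the small subunit, with 12.46, 12.84 and 12.85 on WT arrays 1 to 3 and 10.37, 10.67 and 10.76 on SD2 arrays 1 to 3. All SD2 arrays lay well below all WT arrays. The log2 change was -2.12 ± 0.17 (SE; limma adjusted p = 0.00037). This gene lies 6 protein-coding genes from rpl3202 on the same chromosome. Of the 5 genes between them 3 were measured, and none was called: rpl702 changed by 0.16, pol1 by -0.35 and aar2 by -0.21. Between SD2 and SD1 the means of rps1401 differed by -0.0024.

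Genes that build ribosomes rose together. The 4 lists of small-subunit assembly, snoRNP proteins, large-subunit assembly and nucleolar helicases held 65 measured genes, of which 57 rose, 1 fell and 7 did not pass, against 17.6% higher and 14.3% lower among all probe sets. Their median was 0.94, a 1.92-fold level, and 0.83, 1.23 and 0.77 within arrays 1, 2 and 3. For 58 of them the 3 SD2 arrays lay above the 3 WT arrays, as for 23.1% of all probe sets. All lists used here were chosen with earlier results of these data known, and some entries were removed after values were seen. The shares therefore describe the lists and are no test of them.

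Of 51 listed genes of small-subunit assembly 18 were measured, and all 18 rose, with a median of 0.95. The U3 processome is the large particle that first forms on the rRNA precursor. Its member utp4 read 8.83, 8.35 and 9.01 on WT arrays 1 to 3 and 9.99, 10.14 and 10.06 on SD2 arrays 1 to 3, with no overlap between the strains. The difference SD2 minus WT was 1.33 ± 0.15 (SE; limma adjusted p = 0.00068). Further rises were those of nop14 at 1.11, utp13 at 1.08, imp3 at 1.00, bms1 (a GTPase) at 0.97 and utp20 at 0.92. Also higher were pno1, a factor of late 40S maturation, at 1.09 and mra1, an rRNA methyltransferase gene, at 1.07. Of 12 measured snoRNP and rRNA modification genes (17 listed) 9 rose and 3 did not pass. The nucleolin-like gar2 read 10.34, 9.997 and 10.38 on WT arrays 1 to 3 and 12.04, 11.83 and 12.003 on SD2 arrays 1 to 3. The SD2 arrays lay close together and above all WT arrays. It rose by 1.72 ± 0.14 (SE; limma adjusted p = 0.00037). The core proteins of both snoRNP classes rose as well, with fib1 (fibrillarin, the methyltransferase of box C/D particles) at 0.75, gar1 at 0.99, nhp2 at 0.91, nop10 at 0.73 and the pseudouridine synthase gene cbf5 at 0.62.

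Of 24 measured genes of large-subunit assembly (56 listed) 20 rose, 1 fell and 3 did not pass, with a median of 1.14. The early factor mak16 read 8.68, 8.16 and 8.78 on WT arrays 1 to 3 and 10.20, 10.21 and 10.17 on SD2 arrays 1 to 3. The lowest SD2 value exceeded the highest WT value by more than 1. This was a rise of 1.65 ± 0.16 (SE; limma adjusted p = 0.00048). Other rises were ppp1 (the pescadillo homologue) at 1.62, rlp24 at 1.57, rrp8 (a methyltransferase of the large rRNA) at 1.53, grn1 (a nucleolar GTPase) at 1.53 and sda1 at 1.53. The export factors arx1 and nmd3 rose by 1.44 and 1.25, and tif6, which keeps the immature subunit from joining, by 0.64. The fall was that of urb2, -0.48, which was not called without WT array 2, SD2 array 2 or SD2 array 3, and a second member passed as lower without SD2 array 1. Of 11 measured helicase genes (19 listed) 10 rose. The largest rise there was dbp2, with 10.50, 9.71 and 10.48 on WT arrays 1 to 3 and 11.87, 12.06 and 11.78 on SD2 arrays 1 to 3. The strains did not overlap. In the fit the change came to 1.67 ± 0.22 (SE; limma adjusted p = 0.0011). It was followed by rok1 at 1.47, dbp3 at 1.46, has1 at 1.20, prp43 at 1.11 and mtr4, the helicase of the nuclear exosome, at 0.96.

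RNA polymerase I, which makes the rRNA precursor, showed rises in 11 of 17 measured genes (64.7%) and no fall, with a median of 1.01. Among all probe sets 17.6% rose and 14.3% fell. The gene rpa2, for the second-largest subunit of RNA polymerase I, read 9.82, 9.66 and 9.97 on WT arrays 1 to 3. It read 10.88, 10.91 and 10.98 on SD2 arrays 1 to 3. All SD2 arrays were higher than all WT arrays. The log2 change was 1.11 ± 0.10 (SE; limma adjusted p = 0.00037). The largest subunit gene nuc1 rose by 1.01, the initiation factor gene rrn3 by 1.32, and the smaller subunit genes rpa34, rpa12, rpa49 and ker1 by 1.43, 1.24, 1.24 and 1.09. The shared subunits of RNA polymerases I and III, rpc19 and rpc40, rose by 1.16 and 1.06. Of 18 genes of RNA polymerase III and its factors 9 rose (50%) and 1 fell (5.56%), with a median of 0.41. They included bdp1 of the initiation factor TFIIIB at 1.05, rpc82 at 0.91, rpc34 at 0.82 and rpc17 at 0.75. The gene for the repressor of this polymerase, maf1, was the one lower at -0.51. That call was lost without WT arrays 2 or 3 or any 1 SD2 array.

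Of 24 translation factor genes 14 were higher (58.3%) and none lower, with a median of 0.35. With single arrays left out 11 to 18 were higher, and 7 without all arrays numbered 2. The release factor gene erf1 rose by 0.87, tif225 (a subunit of the exchange factor eIF2B) by 0.87, tif11 (eIF1A) by 0.76, the Ded1-type helicase gene sum3 by 0.58 and tif51 (eIF5A) by 0.51. Of 21 aminoacyl-tRNA synthetase genes 5 rose (8 without WT array 1) and 2 were lower. These were 23.8% and 9.52%, against 17.6% and 14.3% of all probe sets. The rises included prs1 (for prolyl-tRNA) at 0.56 and wrs1 at 0.42. Of the 2 lower, none was called without WT array 2, SD2 array 2 or SD2 array 3, and 1 without WT array 3 or SD2 array 1.

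Nucleotide synthesis genes rose in 16 of 21 cases (76.2%, against 17.6% of all probe sets), none fell, and the median was 0.62. The dihydroorotate dehydrogenase gene ura3, of pyrimidine synthesis, read 11.04, 10.75 and 11.23 on WT arrays 1 to 3 and 12.30, 12.40 and 12.41 on SD2 arrays 1 to 3. The SD2 arrays lay close together and above all WT arrays. The difference SD2 minus WT was 1.36 ± 0.12 (SE; limma adjusted p = 0.00037). The purine genes ade9 (a folate enzyme), gua2 (GMP synthase) and ade1 rose by 1.46, 1.35 and 0.55. The phosphoribosyltransferase genes apt1, for adenine, and ura5, for orotate, rose by 1.23 and 1.20. The gene ade6, higher by 0.72, was not called if WT array 2, SD2 array 2 or SD2 array 3 was left out.

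**Figure D2:**
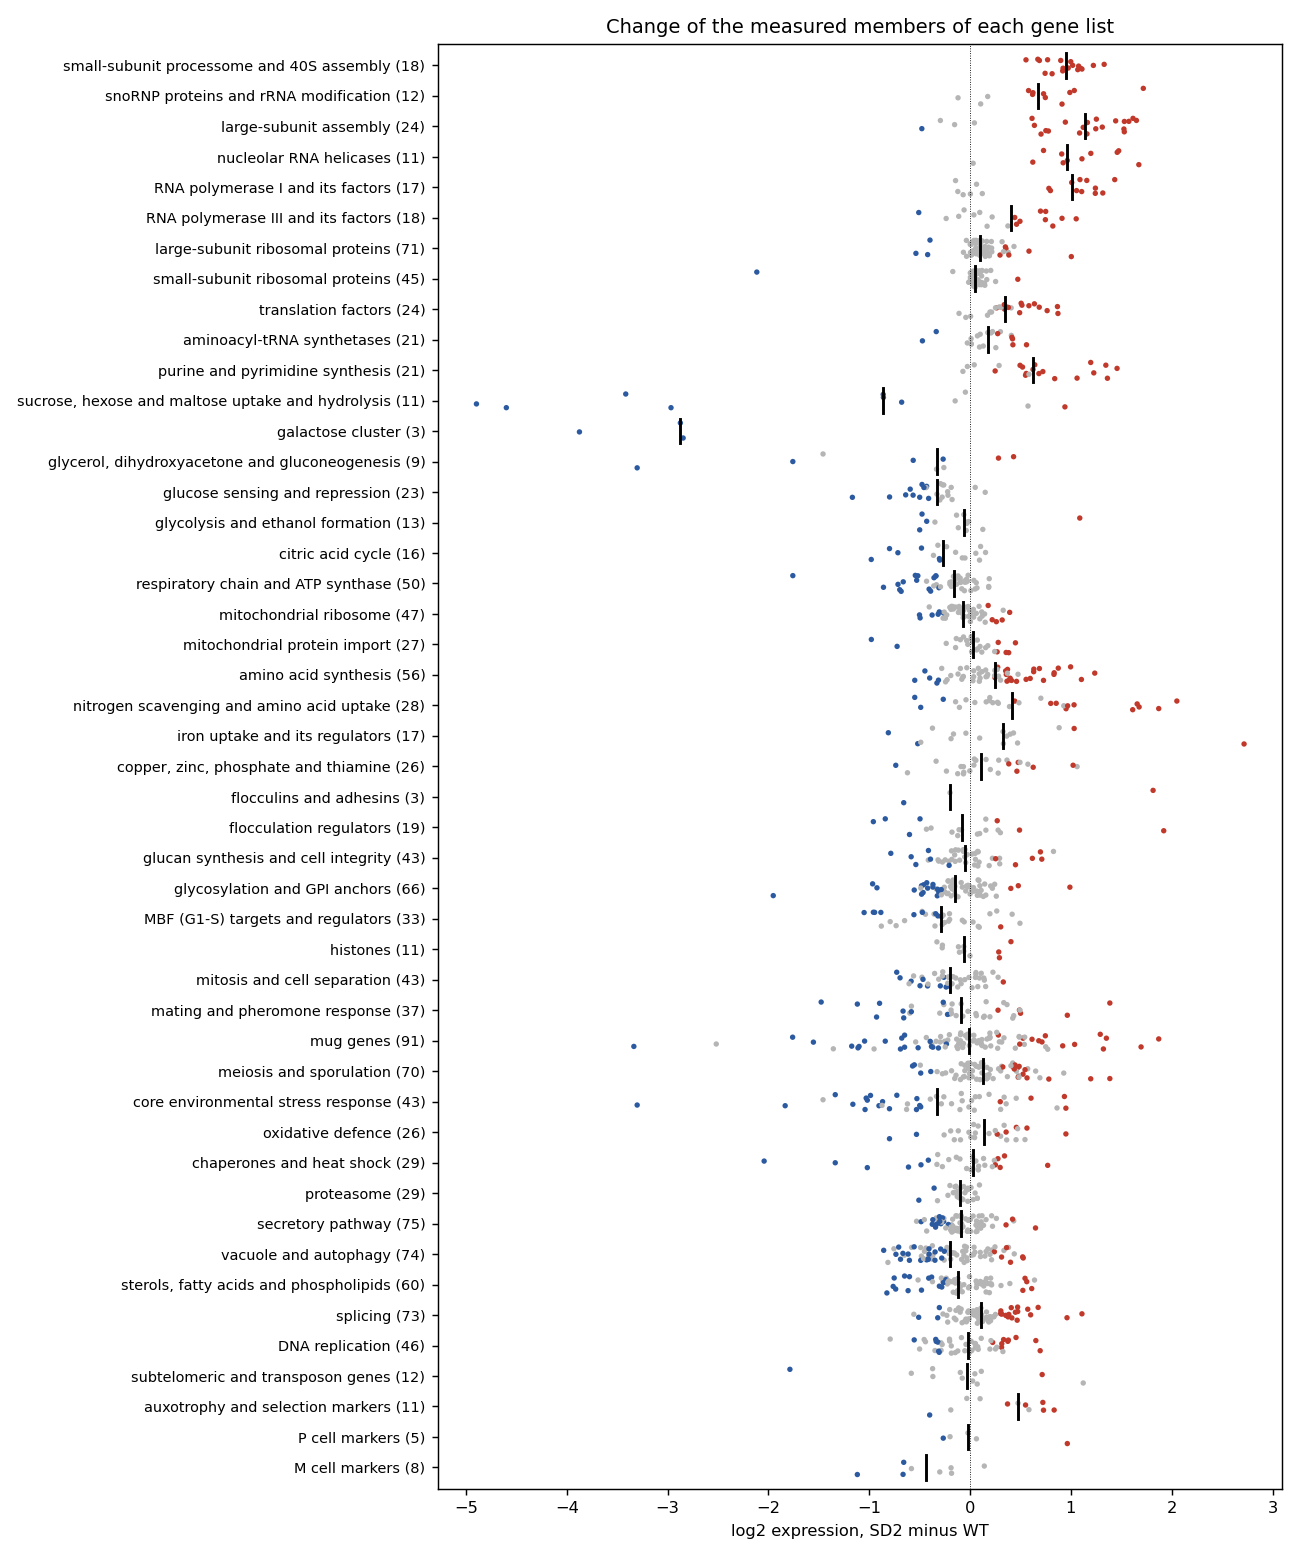
Each point is the log2 difference SD2 minus WT of 1 measured gene, by gene list with the number of measured members in brackets; red was called higher, blue lower and grey neither, and the black bar is the list's median. Ribosome assembly, RNA polymerase I and nucleotide synthesis lay to the right of 0, and the sugar and galactose lists to the left.

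Sugar genes gave the largest falls after the deleted gene. Of 11 measured genes for sucrose, hexose and maltose use 7 fell (63.6%), 1 rose (9.09%) and 3 did not pass, with a median of -0.86. Among all probe sets 14.3% fell and 17.6% rose. Without all arrays numbered 2, 3 were lower, and without SD2 array 1 2 were higher. The invertase gene inv1, whose product splits sucrose outside the cell, read 13.53, 14.16 and 13.02 on WT arrays 1 to 3 and 9.03, 9.06 and 8.81 on SD2 arrays 1 to 3. A wide gap separated the strains. It fell by 4.60 ± 0.27 (SE; limma adjusted p = 9.5e-05). The hexose transporter gene ght1 read 12.88, 12.31 and 10.80 on WT arrays 1 to 3 and 8.54, 6.15 and 6.60 on SD2 arrays 1 to 3. WT array 3 was the lowest of its group and SD2 array 1 the highest of its own, and the strains still did not overlap. This was a difference of -4.90 ± 0.77 (SE; limma adjusted p = 0.0021). The related transporter genes ght3, ght4 and ght5 fell by 3.42, 2.97 and 0.68. That of ght7, at -0.86, kept its call only without WT array 1 and had an adjusted p of 0.064 with the number as a block in limma, and that of sut1, the maltose and sucrose transporter gene, at -0.86, needed WT array 2 to be called. In the other direction, ght8 read 11.73, 11.67 and 11.91 on WT arrays 1 to 3 and 12.69, 12.60 and 12.85 on SD2 arrays 1 to 3. Its SD2 values lay above all WT values. In the fit the change came to 0.94 ± 0.10 (SE; limma adjusted p = 0.00048). In chromosomal order ght8 stands next to ght1.

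All 3 genes of the galactose cluster fell. The epimerase gene gal10 read 11.64, 12.53 and 11.80 on WT arrays 1 to 3 and 8.06, 7.90 and 8.38 on SD2 arrays 1 to 3. The strains were far apart. The log2 change was -3.87 ± 0.47 (SE; limma adjusted p = 0.00077). The uridylyltransferase gene gal7 fell by 2.87 and the galactokinase gene gal1 by 2.85. The gene tgd1 between gal7 and gal10 had no named probe set. Of 9 genes of glycerol use and gluconeogenesis 4 fell (44.4%) and 2 rose (22.2%), against 14.3% and 17.6% of all probe sets. The glycerol dehydrogenase gene gld1 read 12.59, 14.10 and 13.06 on WT arrays 1 to 3 and 9.53, 10.14 and 10.18 on SD2 arrays 1 to 3. There was no overlap. The difference SD2 minus WT was -3.30 ± 0.39 (SE; limma adjusted p = 0.00074). The mitochondrial glycerol phosphate dehydrogenase gene gut2 fell by 1.76 and the glycerol phosphate dehydrogenase gene gpd2 rose by 0.28. The dihydroxyacetone kinase gene dak1, at -0.56, was not called if WT array 1, WT array 2, SD2 array 2 or SD2 array 3 was left out, and 2 genes were lower without WT array 2, SD2 array 2 or SD2 array 3.

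Part of the genes for glucose sensing and repression were lower too. Of 23 measured genes 10 fell, none rose and 13 did not pass, against 14.3% lower and 17.6% higher among all probe sets. The median was -0.33. There were 6 falls without WT array 2 and 4 without SD2 array 2. The kinase gene pka1 read 11.22, 11.61 and 11.27 on WT arrays 1 to 3 and 10.12, 10.23 and 10.25 on SD2 arrays 1 to 3. All SD2 arrays lay below all WT arrays. It fell by 1.17 ± 0.13 (SE; limma adjusted p = 0.0006). The adenylate cyclase gene cyr1 fell by 0.64, the gene of the zinc finger activator Rst2 by 0.59 and amk2, of the AMP-activated kinase, by 0.57. The regulatory subunit gene cgs1, at -0.80, was not called if WT array 2 or SD2 array 2 was left out. In glycolysis and ethanol formation 1 of 13 genes rose (7.69%), the alcohol dehydrogenase gene adh4, by 1.09. There 3 were lower (23.1%), or 1 without WT array 2, SD2 array 2 or SD2 array 3. Among these pgi1 fell by 0.43, while the hexokinase genes hxk1 (-0.48) and hxk2 (-0.50) lost the call without WT array 2, SD2 array 2 or SD2 array 3, and hxk2 also without WT array 1.

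Mitochondrial energy genes were lower in part. Of 16 genes of the citric acid cycle 6 fell (37.5%) and none rose, with a median of -0.27. There were 3 falls without WT array 2, SD2 array 2 or SD2 array 3. The isocitrate dehydrogenase subunit genes idh1 and idh2 fell by 0.98 and 0.72, and the citrate synthase gene cit1 by 0.80. Of 50 genes of the respiratory chain 15 fell (30%, against 14.3% of all probe sets), none rose and 35 did not pass. They included cox10 (heme synthesis for cytochrome oxidase) at -0.86, cox18 at -0.72 and mss51 at -0.68. In mitochondrial protein import sam50, for the outer membrane channel of barrel proteins, fell by 0.98 and mia40, of the intermembrane space, by 0.72, while tim44 rose by 0.45. Over that list 5 of 27 were higher (18.5%) and 2 fell (7.41%), against 17.6% and 14.3% of all probe sets. The higher ones were 2 without WT array 3 or any 1 SD2 array, and 3 without WT array 1.

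**Figure D3:**
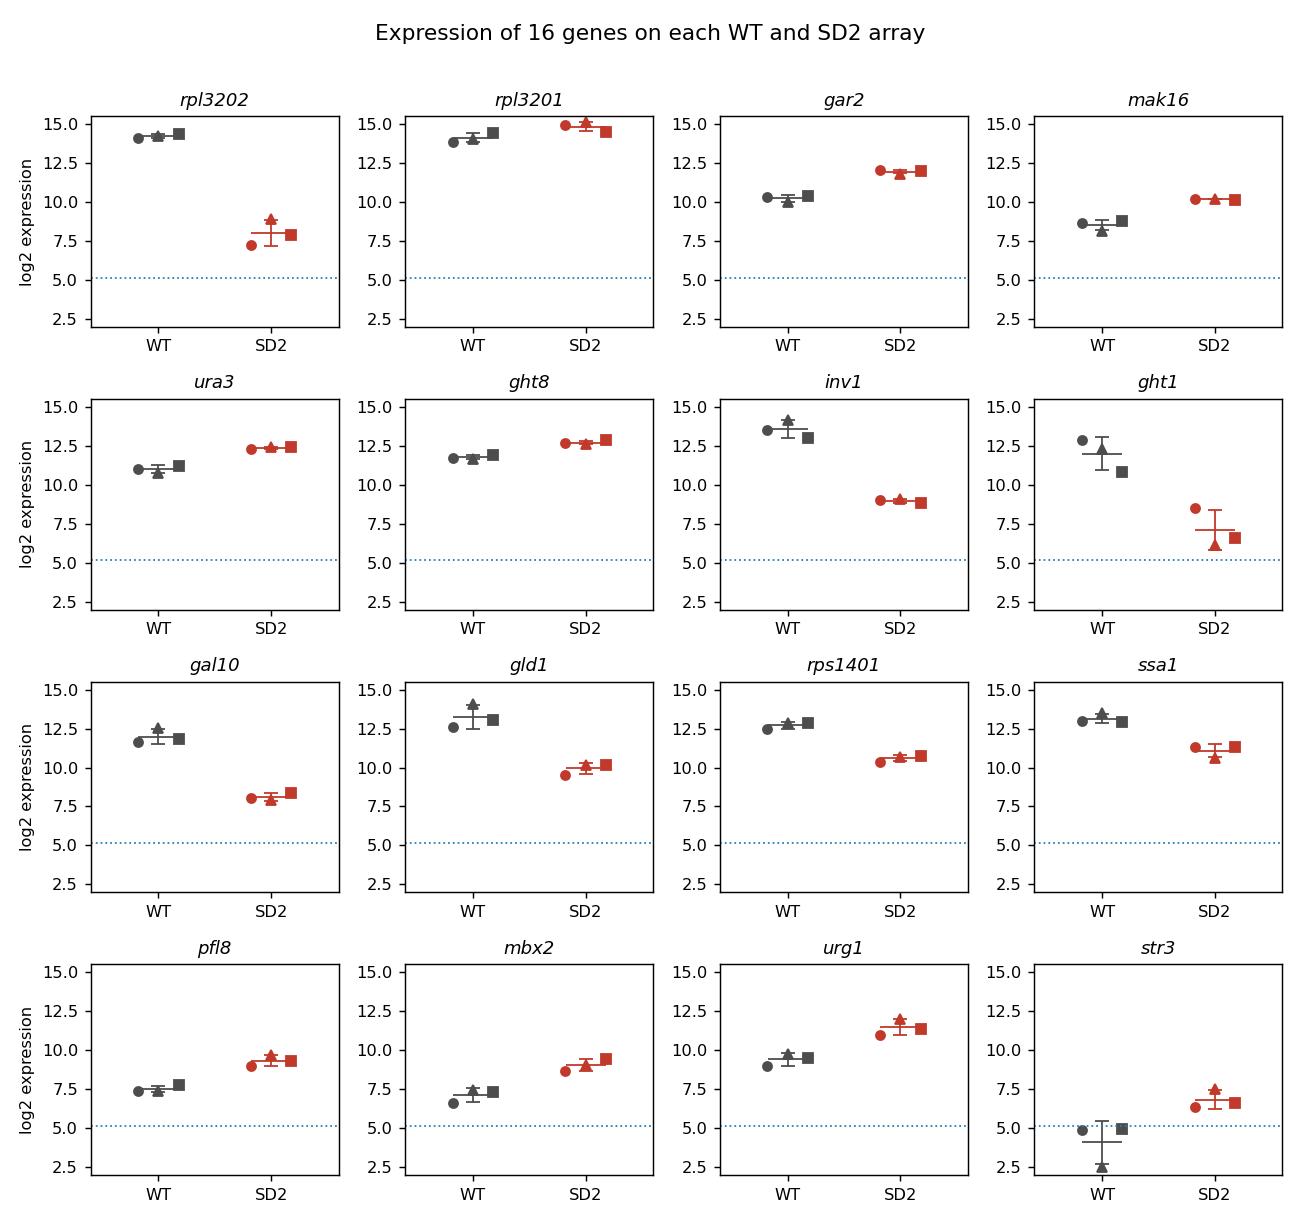
Log2 expression of 16 genes on each array, with circles, triangles and squares for arrays 1, 2 and 3, the horizontal tick and bars for the mean and SD of 3 arrays, and the dotted line for the background averaged over the 6 arrays. For every gene drawn all SD2 values lay on one side of all WT values, from the narrow gap of rpl3201 to the wide one of inv1.

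Nitrogen and amino acid genes leaned upward. Of 28 measured genes for nitrogen scavenging and amino acid uptake 11 rose (39.3%) and 3 were lower (10.7%). Among all probe sets 17.6% rose and 14.3% fell. The list's median was 0.42. Only 1 of its genes was lower without WT array 2, SD2 array 1 or SD2 array 2. The uracil-responsive gene urg1 read 8.97, 9.78 and 9.50 on WT arrays 1 to 3 and 11.004, 12.01 and 11.39 on SD2 arrays 1 to 3. WT and SD2 did not overlap, and array 2 was the highest of each. This was a rise of 2.05 ± 0.46 (SE; limma adjusted p = 0.01). Within 3 genes of it on the chromosome urg2 rose by 1.66 and the uracil permease gene fur4 by 1.03, while urg3 changed by 0.39 without passing. The adenine deaminase gene dea2 read 9.31, 8.87 and 9.51 on WT arrays 1 to 3 and 10.85, 10.92 and 10.95 on SD2 arrays 1 to 3. All SD2 arrays were more than 1 above the highest WT array. In the fit the change came to 1.68 ± 0.15 (SE; limma adjusted p = 0.00037). The ammonium transporter gene amt1 rose by 1.61. Of 56 amino acid synthesis genes 22 rose (39.3%) and 5 were lower (8.93%). Without SD2 array 2 14 rose, and without WT array 2 or SD2 array 3 3 were lower. The rises included the glutamine synthetase gene gln1 at 1.24 and the arginine genes arg4, arg5 and arg1 at 1.10, 1.00 and 0.87. Of the 11 genes used as auxotrophic markers 5 rose (45.5%) and 1 fell (9.09%). The fall was his7 at -0.40, and his5 rose by 0.83. Without SD2 array 2 the rises there were 3.

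Among iron genes str3, for a transporter of iron siderophores and heme, read 4.86, 2.51 and 4.94 on WT arrays 1 to 3 and 6.34, 7.50 and 6.63 on SD2 arrays 1 to 3. All 3 WT values were below the background, so the rise was at least 3.11-fold (limma adjusted p = 0.0098). In the rest of the 17 measured iron genes the siderophore synthesis gene sib2 fell by 0.81. The iron permease gene fip1 was higher by 1.03, a call lost without SD2 array 2, and php2 was lower by 0.52, a call lost without any 1 SD2 array. The copper transporter gene ctr5 rose by 1.02 and the zinc transporter gene zrt1 by 0.63.

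The series concerns flocculation outside mating. Of 11 listed flocculins and adhesins only 3 had a named probe set. Pfl8, of the flocculin family, had transcript values of 7.40, 7.37 and 7.77 on WT arrays 1 to 3 and 8.96, 9.70 and 9.32 on SD2 arrays 1 to 3. The groups did not overlap. The log2 change was 1.82 ± 0.26 (SE; limma adjusted p = 0.0013). The MADS-box activator of flocculin genes, mbx2, read 6.63, 7.45 and 7.32 on WT arrays 1 to 3 and 8.68, 9.05 and 9.43 on SD2 arrays 1 to 3. Its lowest SD2 value exceeded its highest WT value by more than 1. The difference SD2 minus WT was 1.92 ± 0.30 (SE; limma adjusted p = 0.0021). The adhesins of mating went otherwise: mam3 was lower by 0.66, a call lost without WT array 2, WT array 3, SD2 array 1 or SD2 array 3, and map4 differed by -0.20 with no call. Of 19 regulators 3 were higher and 4 lower, against 17.6% and 14.3% of all probe sets. The higher ones were 1 without SD2 array 2, and the lower ones 2 without WT array 2 or SD2 array 2. Among these the adhesion regulator gene ldb1 fell by 0.84 and the forkhead gene sep1, of cell separation, by 0.50. Of 43 genes of glucan synthesis and cell integrity 5 were higher (11.6%) and 6 lower (14.0%), against 17.6% and 14.3% of all probe sets. Their median was -0.053. The higher ones were 3 without WT array 2 or WT array 3 and 2 without SD2 array 2 or SD2 array 3, and the lower ones 2 without WT array 2 or WT array 3 and 3 without any 1 SD2 array. There the chitin synthase gene chs1 and the phosphatase gene pmp1 rose by 0.71 and 0.70, and the glucanase gene exg3 fell by 0.58. Of 66 genes of glycosylation and GPI anchors 16 fell (24.2%) and 3 rose (4.55%). There gmh1 (a galactosyltransferase) fell by 1.95 and alg3 (a mannosyltransferase) by 0.97, and omh5 rose by 0.99.

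**Figure D4:**
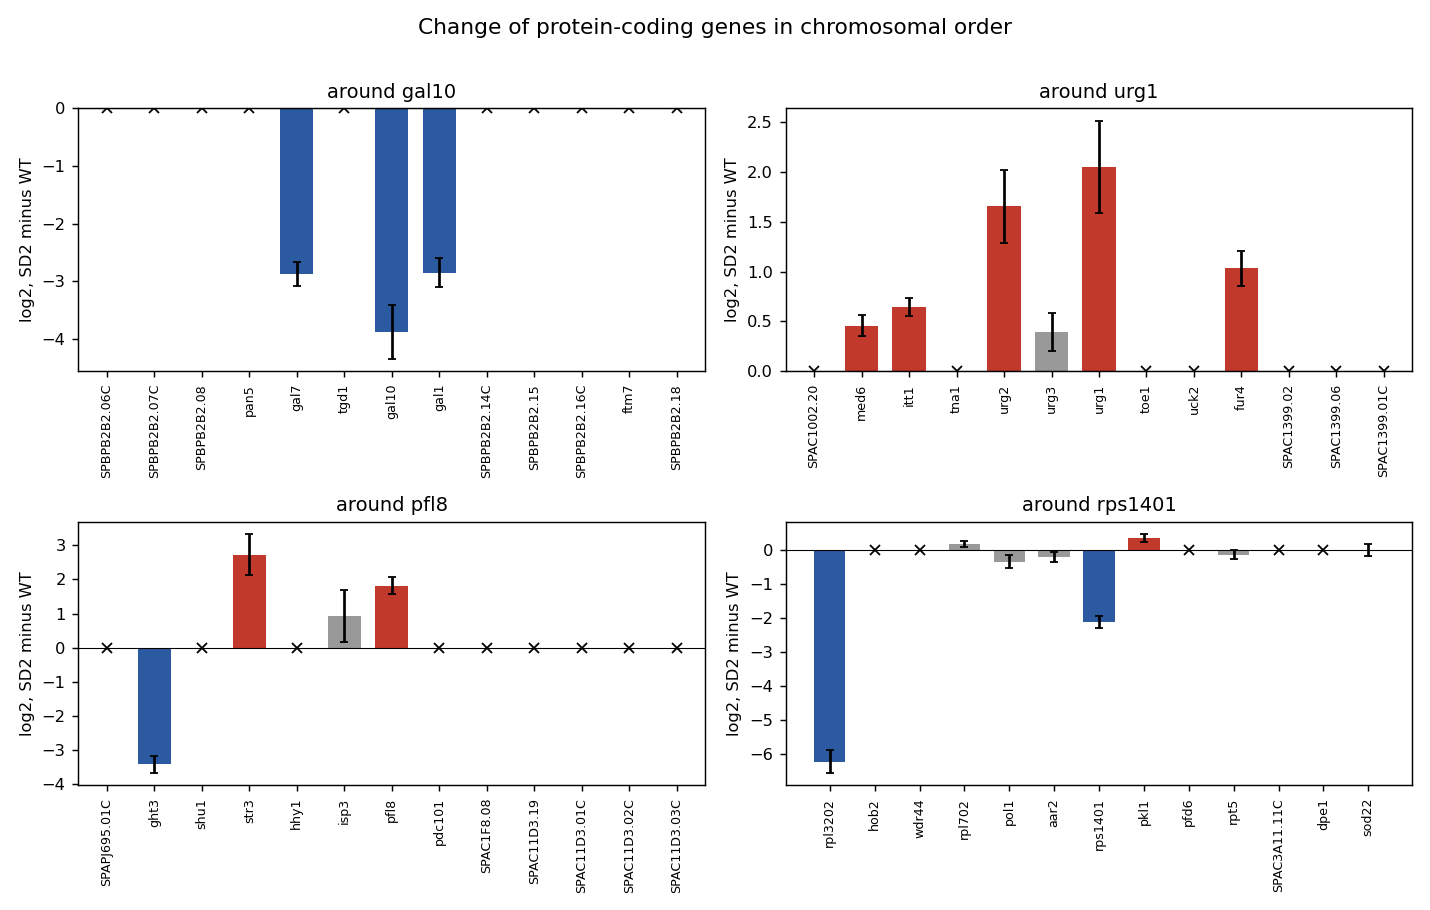
Bars give the log2 difference SD2 minus WT and its SE for protein-coding genes in chromosomal order, 6 to each side of gal10, urg1, pfl8 and rps1401, with red called higher, blue lower and grey neither, and crosses for genes without a named probe set. In the pfl8 panel str3 and pfl8 rose and ght3, next but one to str3, fell.

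Among the genes of the G1-S wave and of mitosis, falls outnumbered rises. Of 33 targets and regulators of MBF, the factor of the G1-S wave, 9 fell (27.3%) and 1 rose (3.03%). Among all probe sets 14.3% fell and 17.6% rose. There were 5 falls without WT array 2, 3 falls without SD2 array 2 and 2 rises without WT array 1. The changes of the MBF subunit gene res2 and the corepressor gene nrm1 were -1.05 and -0.89. The corepressor gene yox1, at -0.96, lost its call without WT array 2 or SD2 array 2. Of 43 genes of mitosis and cell separation 10 fell (23.3%) and 1 rose (2.33%). There were 6, 6 and 5 falls without WT array 2, WT array 3 and SD2 array 3. The septation kinase gene sid2 fell by 0.69, its pathway scaffold gene cdc11 by 0.47 and the kinesin gene klp8 by 0.58. None of 11 histone genes fell and 3 (27.3%) were higher by at most 0.41, 1 of them without SD2 array 3. The DNA replication shares were near those of all probe sets (17.6% higher, 14.3% lower): 9 of 46 were higher, with 4 without WT array 2 or SD2 array 2 and 3 without SD2 array 3. There 6 were lower, with 3 without WT array 2 or SD2 array 2; orc2 of the origin complex rose by 0.69 and cdc23 (Mcm10) fell by 0.55.

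Mating and meiosis genes went both ways. Of 37 mating genes 5 were higher (13.5%) and 9 lower (24.3%), against 17.6% and 14.3% of all probe sets. Without WT array 2 or any 1 SD2 array 5 were lower. The arrestin-like gene ste7 read 11.21, 11.69 and 11.19 on WT arrays 1 to 3 and 9.77, 10.06 and 9.82 on SD2 arrays 1 to 3. The strains did not overlap. It fell by 1.48 ± 0.14 (SE; limma adjusted p = 0.00045). The kinase gene byr2, of the pheromone pathway, fell by 0.93. Of 8 measured markers of M cells none rose and 3 were lower (37.5%). They included the pheromone exporter gene mam1 at -1.12 and the pheromone gene mfm1 at -0.67. A second, dimmer probe set of mfm1, at -0.58, was not called (limma adjusted p = 0.11). The mean log2 value of the 8 markers was 9.25 to 9.59 over the WT arrays and 8.78 to 9.08 over the SD2 arrays. No marker was at background in both strains. Of 5 markers of P cells the pheromone gene map2 rose by 0.96 and 3 were not called. The protease gene sxa1, lower by 0.27, lost its call without WT array 2 or 3 or any 1 SD2 array. Of 70 genes of meiosis and sporulation 13 were higher, a share near the 17.6% of all probe sets, and 4 lower, with 2 lower without any 1 SD2 array. The meiotic forkhead gene mei4 read 5.52, 5.61 and 5.53 on WT arrays 1 to 3 and 6.33, 7.29 and 7.21 on SD2 arrays 1 to 3. All SD2 values were above all WT values. This was a rise of 1.39 ± 0.25 (SE; limma adjusted p = 0.0041). The Mei4-dependent gene mde5 rose by 1.20. Among the 13, rec15 and bqt1 were at background in both strains. Of the 10 markers listed for meiotic and sporulating cells, mei4 and the recombinase gene dmc1 (0.43) were called; isp3 differed by 0.93 with an adjusted p of 0.39 in limma. Of 91 mug genes, named for a rise in meiosis in other work, 14 were higher and 18 lower (11 without WT array 2), against 17.6% and 14.3% of all probe sets, with extremes at mug115 (1.87) and mug14 (-3.34).

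In the core environmental stress response falls outnumbered rises. Of its 43 measured genes 16 fell and 4 were higher, against 14.3% and 17.6% of all probe sets, and 2 were higher without WT array 2 or SD2 array 3. The list's median was -0.33, and -0.18, -0.64 and -0.17 within arrays 1, 2 and 3. The falls included the stress factor gene atf1 at -1.04, the small heat shock gene hsp16 at -1.02 and tms1, for a dehydrogenase, at -1.83. Of 29 chaperone genes 6 fell (20.7%) and 5 were higher (17.2%), against 14.3% and 17.6% of all probe sets. The higher ones were 3 without WT array 2, WT array 3, SD2 array 1 or SD2 array 2, and 2 without SD2 array 3. The Hsp70 gene ssa1 read 12.98, 13.49 and 12.93 on WT arrays 1 to 3 and 11.29, 10.64 and 11.33 on SD2 arrays 1 to 3. The groups did not overlap, and SD2 array 2 was the lowest. In the fit the change came to -2.04 ± 0.31 (SE; limma adjusted p = 0.0017). Genes for its partners went both ways: psi1 (a J-protein) fell by 1.34 and sti1 by 0.61, while mas5 (a J-protein too) rose by 0.77. In oxidative defence 5 of 26 genes were higher (19.2%) and 2 lower (7.69%), against 17.6% and 14.3% of all probe sets. The higher ones were 3 if WT array 1, SD2 array 3 or WT array 3 was left out and 2 without SD2 array 2, and the lower ones 1 without WT array 2 and 0 without SD2 array 2 or SD2 array 3. There the glutathione reductase gene pgr1 rose by 0.56, and the catalase gene ctt1, lower by 0.80, lost its call without WT array 2, SD2 array 2 or SD2 array 3. Of 29 proteasome genes none rose and 2 were lower (6.90%), 1 of them without WT array 1, WT array 2, SD2 array 2 or SD2 array 3.

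In membrane traffic and lipid genes more were lower than higher. Of 74 genes of the vacuole and autophagy 19 fell (25.7%) and 6 were higher (8.11%), against 14.3% and 17.6% of all probe sets. There were 10 falls without SD2 array 2 and 12 without SD2 array 3. The higher ones were 3 without WT array 3 and 2 without SD2 array 3. The autophagy gene atg2 fell by 0.86 and the retromer genes vps5 and vps17 by 0.71 and 0.69. Of 60 lipid genes 14 were lower (23.3%) and 4 higher (6.67%). There 8 were lower without WT array 2, WT array 3, SD2 array 1 or SD2 array 2 and 9 without SD2 array 3. Here are1 (sterol esterification) fell by 0.75, erg12 (mevalonate kinase) by 0.74 and psd3 (phosphatidylserine decarboxylation) by 0.76. In the secretory pathway 11 of 75 were lower, near the 14.3% of all probe sets, and 3 higher. The lower ones were 6 without WT array 2 and 5 without SD2 array 2 or SD2 array 3; the coatomer gene sec21 fell by 0.37, and sec66 rose by 0.65. Of 73 splicing genes 17 rose (23.3%) and 3 fell (4.11%), against 17.6% and 14.3% of all probe sets. The splicing kinase gene prp4 rose by 0.96 and prp2, for the large subunit of U2AF, by 0.67.

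**Figure D5:**
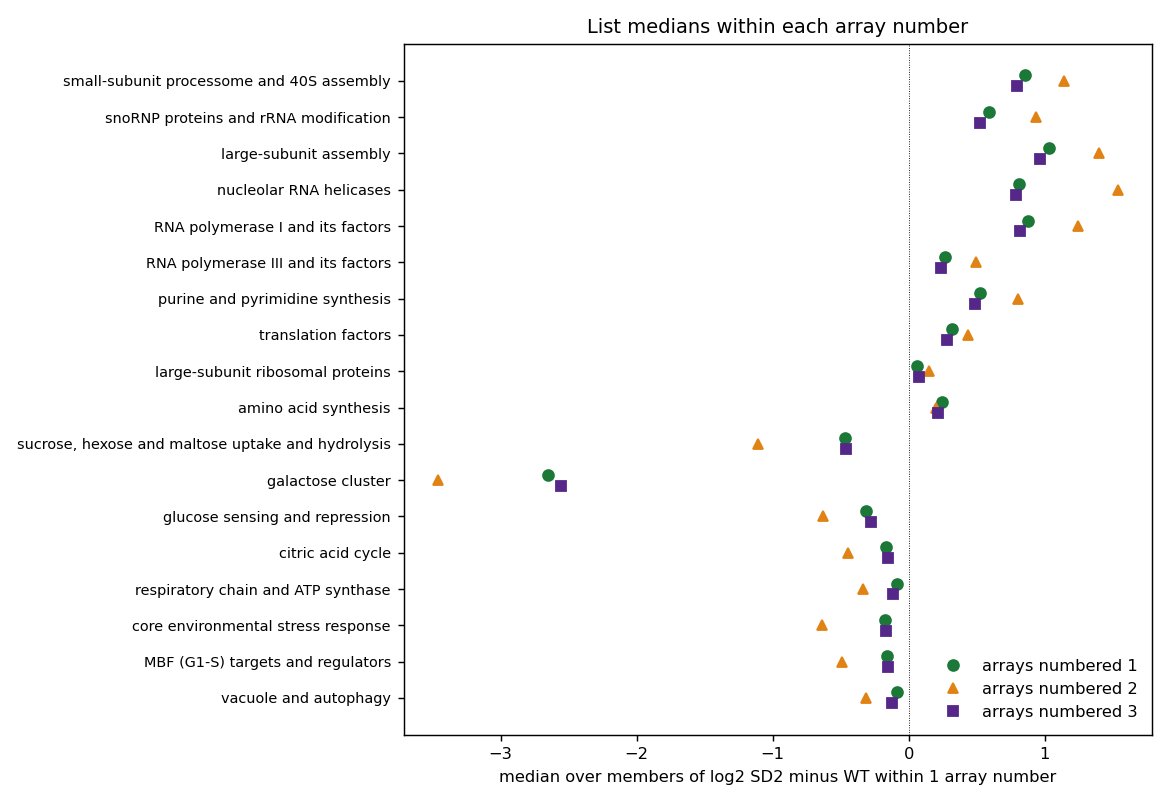
Median over the measured members of 18 gene lists of the log2 difference SD2 minus WT within arrays numbered 1, 2 and 3. For every list drawn except amino acid synthesis the arrays numbered 2 gave the median furthest from 0, and all 3 medians of a list had the same sign.

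Some of the largest changes lay outside these groups. Among genes above background in WT the largest rise was that of ani1, which read 9.999, 9.37 and 10.09 on WT arrays 1 to 3 and 12.03, 11.97 and 11.97 on SD2 arrays 1 to 3. The SD2 arrays lay close together, far above the WT arrays. The log2 change was 2.17 ± 0.19 (SE; limma adjusted p = 0.00037). The meiotically named mug95 was at background in WT and rose at least 1.70-fold. Among the falls was cao2, of the copper amine oxidase family, with 11.51, 12.64 and 11.73 on WT arrays 1 to 3 and 9.33, 10.04 and 9.76 on SD2 arrays 1 to 3. The strains did not overlap. The difference SD2 minus WT was -2.25 ± 0.30 (SE; limma adjusted p = 0.0011). The gene lsd90 fell by 1.92 and mug143 by 1.55. The alanine racemase family gene alr2 (-1.89) and mug114 (-1.76) lost their calls without WT array 1, WT array 2, SD2 array 2 or SD2 array 3. For 14 genes with several probe sets, all probe sets of 9 genes gave the same call.

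SD2 and SD1 were compared directly, since their comparisons with WT share the WT arrays. Of 2937 probe sets 5 differed (0.170%): rpl3201 was higher in SD2, and rpl3202, fip1 and the telomere-linked helicase gene tlh2, the last with 2 probe sets, were lower. With the number as a block limma called 25, and 10 without WT array 2. The gene fip1 read 10.92, 10.71 and 11.08 on SD1 arrays 1 to 3 and 8.62, 9.31 and 8.83 on SD2 arrays 1 to 3. The SD2 arrays lay below all SD1 arrays. Set against SD1, SD2 differed by -1.98 ± 0.27 (SE; limma adjusted p = 0.033). With the number as a block its adjusted p was 0.053 in limma, so that call was lost. The gene tlh2 read 8.23, 8.36 and 7.87 on SD1 arrays 1 to 3 and 6.42, 5.53 and 6.03 on SD2 arrays 1 to 3. SD2 lay below SD1 and also below WT, by 1.79 in the latter case. Another of its probe sets, which lay close to the background, was called higher in SD2 than in WT by 0.76. Of the 65 ribosome assembly genes 62 read lower in SD2 than in SD1, by a median of 0.32, and none of them passed the test.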

How the data were processed

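RNA of S. pombe was measured on 9 Affymetrix arrays, 3 each of WT, SD1 and SD2. Values were deposited as log2 expression per probe set, made by the authors with RMA and Partek per the submitters' processing notes. Versions, settings, and which arrays were normalized together are not given in the sources used here. Of 10928 probe sets, 2937 named S. pombe genes, 2917 of them with 1 symbol, for 2899 genes. Names came from the platform annotation and were updated by gene number to assembly ASM294v3 for 2914 of them and by symbol for 3. A further 2601 were of S. cerevisiae, 166 were controls, 47 were reporters and 5177 carried no gene name here. Arrays have no read depth, and precision is limited by how many there are.

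The fit used lmFit and eBayes of limma 3.58.1 (R 4.3.3), with a mean for each strain and all 9 arrays sharing the spread. P-values were adjusted by Benjamini and Hochberg over the 2937 probe sets, and a call needed an adjusted p under 0.05. Each p-value weighs a difference of strain means against the spread between arrays of the same strain. In the main fit that spread includes differences between array numbers. On simulated data with 200 changed probe sets the fit called 73.5% of changes of 0.5 and 98.5% of changes of 1, with 13 false calls. Whether these figures carry over to the real arrays, whose number was treated as a processing set, was not tested. Background was set at percentile 95 of the probe sets for S. cerevisiae, and a fold change against a strain wholly below it is a lower bound set against it.

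The members and the 48 gene lists were chosen with earlier results of these data known, and 47 list entries whose names belong to genes of another function were removed after values were seen. Lists are described by counts and medians over genes, each by its brightest probe set, with no test of the list. Genes were named by a rule. It took the L32 pair, the 20 largest rises and 20 largest falls without overlap of the strains, the 10 smallest p-values, and all genes called between SD2 and SD1. It added up to 5 called members of each list with the largest change (10 for the ribosome and carbon lists), or 2 members where none was called, and all adhesins and cell markers. Outside the rule, urb2, fur4, urg3, rpl702, pol1 and aar2 were named after their values were seen. Alternatives were the array number as a block, the 6 arrays alone, centring on array medians, quantile normalization, a filter on dim probe sets, a trended robust prior and leaving out each array.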

Additional observations from a re-analysis of the deposited data

Results flagged for a closer look

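The direct comparison of SD2 with SD1 by limma found differences at 4 genes. The deleted genes gave -6.27 for rpl3202 and 9.81 for rpl3201 (log2, SD2 minus SD1). On SD1 arrays 1 to 3 rpl3201 read 4.17, 6.04 and 4.90, below the background on arrays 1 and 3, so 9.81 is set against values near the background. The others were fip1 at -1.98, which was not called with the array number as a block, and tlh2 at -2.16.

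Outside the named S. pombe probe sets, 1 of 47 reporter probe sets, which represent marker and vector sequences, lay above background on all 3 SD2 arrays and below it on all 3 WT arrays. It read 3.73, 1.75 and 3.06 on WT arrays 1 to 3 and 13.11, 10.53 and 12.11 on SD2 arrays 1 to 3. The difference of the means was 9.07, and against the background the signal was at least 106-fold higher. On the SD1 arrays it read 13.28, 10.62 and 12.29. A second reporter probe set, named for the same sequence entry, read 10.16, 7.63 and 8.51 on WT arrays 1 to 3. On SD2 arrays 1 to 3 it read 9.84, 8.86 and 8.33, so it was above background in both strains. Which sequence either probe set represents was not analysed here.

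Of 5177 probe sets without a gene name, the 2214 above background on at least 3 arrays were tested by limma. Of these, 836 were called in SD2 against WT, 463 (20.9%) higher and 373 (16.8%) lower.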

How the results depend on the processing

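The array number as a block moved the calls lower in SD2 than in WT from 419 to 694, and those between SD2 and SD1 from 5 to 25. It moved 37 of 82 counts over gene lists by more than 1.5 times. Deviations of same-numbered WT and SD2 arrays correlated at 0.79, -0.10 and 0.33 for numbers 1, 2 and 3, so the numbers did not pair these samples throughout. Leaving out all arrays numbered 2, those of WT, SD1 and SD2, was an alternative chosen after seeing the data. It gave 309 probe sets higher and 186 lower, 57 and 21 of them by 2-fold, and moved 50 of the 82 list counts by more than 1.5 times. Falls went from 15 to 7 in the respiratory chain, 9 to 2 for MBF, 16 to 7 in glycosylation and 11 to 1 in the secretory pathway. Rises went from 22 to 8 in amino acid synthesis and 14 to 7 for translation factors. In small-subunit assembly 17 genes rose and in RNA polymerase I 11. Leaving out single arrays gave 383 to 519 higher and 261 to 486 lower, 61 to 122 and 25 to 68 of them by 2-fold, and 4 to 10 between SD2 and SD1. Large-subunit assembly genes called lower were 0 with arrays centred on their medians, 0 without all arrays numbered 2, and 0 to 2 without single arrays. Sugar genes called higher were 2 with the block, 2 with centring and 1 to 2 without single arrays. Those called lower were 3 without all arrays numbered 2. The causes were not tested. Genes whose change turned sign were never called. Without all arrays numbered 2 map1 read 0.12 and spn6 0.081, and without single arrays -0.10 to 0.12 and -0.30 to 0.085. The gene spo4 read 0.0055 with centring and -0.11 to 0.075 without single arrays, and rec8 -0.20 with quantile normalization. Without single arrays map3 ran -0.026 to 0.16, mfm3 -0.35 to 0.0067 and spn5 -0.13 to 0.59. Of 274 named genes, 98 lost their call without all arrays numbered 2, 25 with the 6 arrays alone and 16 with centring. Calls were lost for 8 with quantile normalization, 3 with the trended prior and 2 with the block. The filter on dim probe sets kept 269 of the named genes, and none of these lost its call. The others were removed before the test. No sequences were analysed, and 5177 probe sets stayed without a name.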
